A study of Mus musculus with 12 samples.

Results

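Polycomb repressive complex 1 (PRC1) was followed through 9 of its genes in mouse blood stem and progenitor cells that carried a Tet2 hypomorphic allele, an Ezh2 null allele, both or neither. The genes were Ring1 and Rnf2, Bmi1, the Cbx genes Cbx2, Cbx6, Cbx7 and Cbx8, and the Phc genes Phc1 and Phc2. They were selected by name, as every array probe annotated with a RefSeq transcript of one of these symbols, which gave 9 of 20284 genes named on the array and 12 probes. Bmi1 had 2 probes and Cbx6 had 3, and each other gene had 1; the brightest probe stood for the gene. RNA came from 2 populations sorted from the bone marrow of C57BL/6 recipient mice that had been repopulated with fetal liver cells. One was LSK, the fraction without lineage markers that carries Sca-1 and c-Kit and contains the stem cells and multipotent progenitors, and the other was the granulocyte-macrophage progenitors (GMPs). Each population was taken in 6 conditions. These were wild-type, Tet2KD/KD (Tet2 knockdown, a hypomorph), Ezh2-/- (Ezh2-null), Tet2KD/KDEzh2-/- (double mutant), double mutant with myelodysplastic/myeloproliferative neoplasm (MDS/MPN) and double mutant with refractory anemia with excess of blasts (RAEB). Each of the 12 groups was 1 Agilent one-colour array, and the diseased arrays all carried the double mutant genotype. The Cre or promoter used, the number of mice behind each RNA, their age and the share of host cells left in the sorted fractions are not given in the sources used here.

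PRC1 places a ubiquitin on histone H2A and compacts chromatin. Its catalytic core pairs a RING1 protein, Ring1 or Rnf2 (also called Ring1B), with a PCGF protein such as Bmi1. In the canonical complex a Cbx chromodomain protein reads the H3K27 trimethylation laid down by PRC2, whose catalytic subunit is Ezh2, and a Phc (polyhomeotic) protein multimerises the complex. Bmi1 is best known in blood for sustaining haematopoietic stem cells and for holding down Cdkn2a, while among Cbx proteins Cbx7 is associated with stem cell self-renewal and Cbx2 and Cbx8 with more differentiated cells. Tet2 oxidises 5-methylcytosine.

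A signal here is the log2 processed intensity of a probe minus the 75th percentile of its array, so 0 is that percentile and a difference of 1 is 2-fold; signals of different genes come from different probes and are not set against each other. The 75th percentile lay between 168.5 and 389.4 intensity units over the 12 arrays, and 45.6% to 52.3% of gene spots were well above background. The Ezh2 probe did not separate the genotypes. Its signal was between 2.50 and 2.82 on the 4 LSK arrays without disease and between 3.12 and 3.40 on the 4 GMP arrays without disease, with a difference of 0.01 (SE 0.12, adjusted p = 0.995) between arrays labelled Ezh2-deficient and Ezh2 wild-type. The position of that probe relative to the deleted part is not given, so it does not check the Ezh2 labels, and genotypes are used as labelled. Tet2 was at 0.44 in wild-type and 0.12 in Ezh2-null LSK cells, against -1.61 with Tet2 knockdown and -0.79 in the double mutant. GMP arrays were at 1.57 and 1.51, against -0.64 and -1.01, so the Tet2 knockdown arrays were the lower ones in both populations (difference -1.92, SE 0.27, adjusted p = 0.381). The LSK markers (9 genes, among them Ly6a, Procr and Hlf) summed to 354 to 453 times the percentile signal on LSK arrays and 136 to 237 on GMP arrays, where Mecom was at background throughout. The 8 GMP markers (among them Mpo, Elane and Prtn3) summed to 4171 to 6567 on GMP arrays and 291 to 1362 on LSK arrays. All 8 arrays without disease lay on 1 slide, the diseased LSK arrays on another and the diseased GMP arrays on the third, so disease cannot be told apart from slide.

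Of the 9 PRC1 genes, 8 were well above background on 12 of 12 arrays. Cbx7 was not well above background on any array, with its 1 probe between -6.79 and -5.86, and it was not tested. A gene without expression and a probe that does not detect its transcript cannot be told apart here. Among the other 8, Bmi1, Cbx2, Cbx6 and Phc1 spanned the widest ranges over the 12 arrays, 1.82, 2.52, 1.78 and 1.91. Rnf2 and Ring1, the catalytic subunits, spanned 0.71 and 0.84, and Phc2 spanned 0.88. The arrays of Cbx2, Cbx6 and Phc1 divided by cell type, and those of Bmi1 by Ezh2 genotype.

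**Figure D1:**
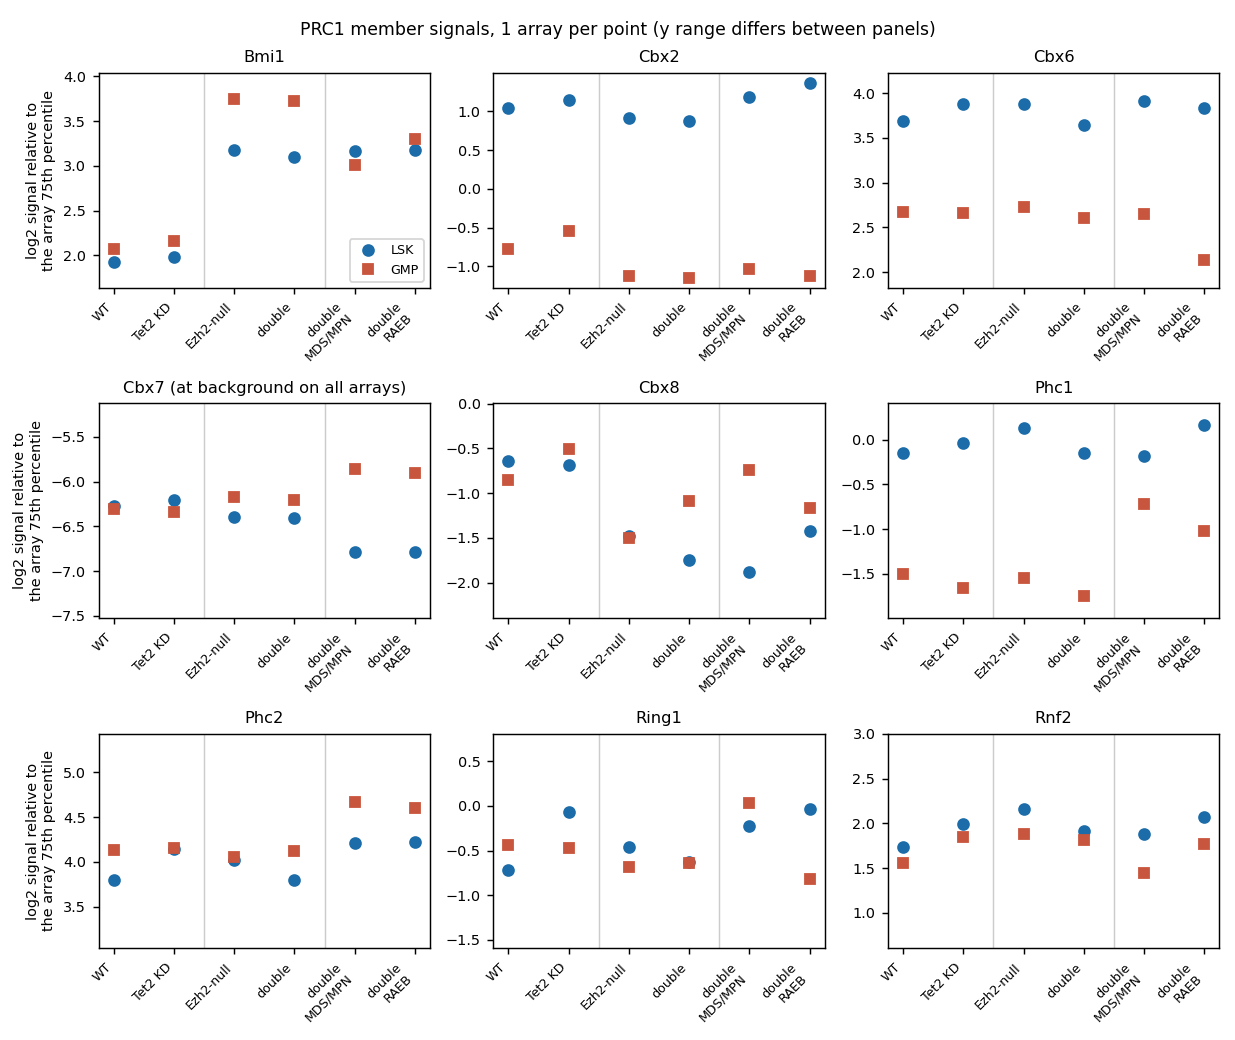
Signal of each of the 9 PRC1 genes on each of the 12 arrays (y axis, log2 processed intensity relative to the array's 75th percentile; x axis, the 6 conditions); circles are LSK arrays, squares GMP arrays, 1 array per point, and grey lines part Ezh2 wild-type, Ezh2-deficient and diseased arrays. Cbx2, Cbx6 and Phc1 lie lower on all 6 GMP arrays than on any LSK array, Bmi1 lies higher on all 8 Ezh2-deficient arrays than on the 4 others, and Cbx7 stays at background.

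Loss of Ezh2 was compared in the 8 arrays without disease, 4 labelled Ezh2-null or double mutant against 4 wild-type or Tet2 knockdown. Bmi1 was the 1 PRC1 gene of the 8 tested that passed. It rose by 1.40 (SE 0.12, 95% interval 1.10 to 1.70, adjusted p = 0.0199), a 2.64-fold higher signal. Over all 13712 genes tested, 0.19% passed in either direction, 0.168% as higher and 0.0219% as lower. The SE measures how far single arrays departed from an additive effect of cell type and genotype, not the spread between mice, since no group was repeated. In sorted bulk RNA, a change in the make-up of the fraction and a change in RNA per cell cannot be told apart.

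The Bmi1 arrays fell into separate sets in each cell type. In LSK cells the signal was 1.92 in wild-type and 1.98 with Tet2 knockdown, against 3.17 with Ezh2 lost alone and 3.10 with both alleles. GMP signals were 2.08 and 2.16, against 3.75 and 3.72. The 4 diseased arrays, which the fit did not use, were also above every Ezh2 wild-type array, with MDS/MPN at 3.16 in LSK cells and 3.01 in GMPs and RAEB at 3.18 and 3.30. In GMPs these 2 diseased values lay below the 2 Ezh2-deficient arrays without disease, and in LSK cells they lay beside them. Of all genes tested, 4.99% were higher in this way in both cell types on the arrays without disease, and 1.98% with the diseased arrays included.

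The second Bmi1 probe behaved alike. It was at 0.55 and 0.42 on the Ezh2 wild-type LSK arrays and at 2.01 and 1.72 on the Ezh2-deficient ones, and at 0.45 and 0.36 against 2.27 and 2.02 in GMPs. Fitted on its own among 17987 probes, it rose by 1.56 (SE 0.12, adjusted p = 0.0164). On the diseased GMP arrays it was at 0.85 (MDS/MPN) and 1.18 (RAEB), well below the other Ezh2-deficient arrays but still above both Ezh2 wild-type GMP arrays; the diseased LSK arrays were at 1.73 and 1.55.

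In a limma fit by cell type, 0.16% of all genes passed with Ezh2 loss in LSK cells and 0.744% in GMPs. The Bmi1 difference was 1.18 (SE 0.15, adjusted p = 0.0814) in LSK cells, which did not pass alone, and 1.62 (SE 0.15, adjusted p = 0.0175) in GMPs, which did. The difference between these effects was 0.43 (SE 0.22, 95% interval -0.10 to 0.96, adjusted p = 1.00), so a dependence on cell type was not shown at this number of arrays. The Bmi1 call did not survive the loss of an array. Leaving out any 1 of the 8 arrays, which were the wild-type, Tet2 knockdown, Ezh2-null and double mutant arrays of LSK cells and of GMPs, kept the difference between 1.33 and 1.48 but moved the adjusted p to between 0.0544 and 0.0989. With a term for the sex-linked genes, which among these 8 arrays divide the single mutants from the others, the difference was 1.40 and the adjusted p was 0.0557. Late neutrophil markers (Ltf, Camp, Ngp, S100a8, S100a9 and Mmp9, of which at least 3 of 6 were above background on each array) summed to 88.8 and 20.0 on the Ezh2 wild-type LSK arrays against 18.8 and 10.1 on the Ezh2-deficient ones, and to 35.8 and 27.6 against 23.4 and 41.5 in GMPs. The 4 megakaryocyte markers (Pf4, Itga2b, Gp9 and Ppbp) summed to 27.3 and 20.4 against 16.4 and 10.3 in LSK cells, and to 3.2 and 1.8 against 2.8 and 2.0 in GMPs. Their part in the Bmi1 result was not tested.

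**Figure D2:**
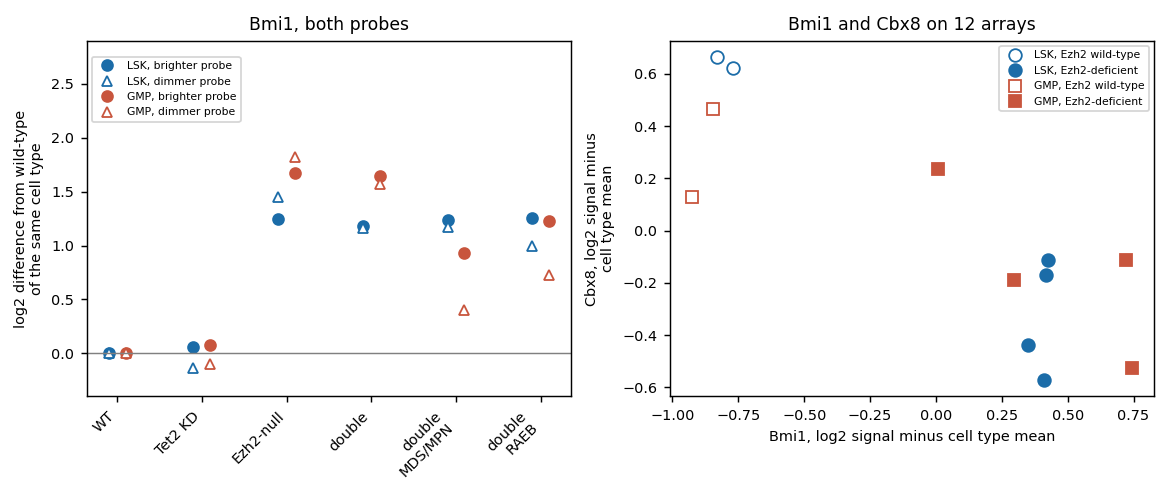
Left, difference of each array from the wild-type array of its cell type (y axis, log2) for both Bmi1 probes over the 6 conditions (x axis); filled symbols are the brighter probe, open triangles the dimmer one. Right, Cbx8 against Bmi1 on the 12 arrays (both axes log2 signal minus the mean of the cell type), where the 4 open symbols, Ezh2 wild-type arrays, sit at the low end of Bmi1 and the filled, Ezh2-deficient arrays at its high end.

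Cbx8, a chromodomain subunit, and Cbx2, its neighbour on the chromosome, had values in the opposite direction, and neither passed. The Cbx8 signal was -0.64 and -0.68 in wild-type and Tet2 knockdown LSK cells, against -1.48 with Ezh2 lost alone and -1.75 with both alleles. The GMP values were -0.85 and -0.51, against -1.50 and -1.09. The Ezh2-deficient arrays without disease were thus the lower pair in both cell types, and the difference was -0.78 (SE 0.15, 95% interval -1.15 to -0.41, adjusted p = 0.167). Within LSK cells it was -0.95 and within GMPs -0.62. The diseased LSK arrays were also below the Ezh2 wild-type LSK arrays, at -1.88 (MDS/MPN) and -1.42 (RAEB), but the diseased GMP arrays, at -0.74 and -1.17, overlapped the Ezh2 wild-type GMP arrays.

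The Cbx2 difference was -0.34 (SE 0.11, 95% interval -0.61 to -0.07, adjusted p = 0.428). Its LSK signal was 1.04 and 1.15 on Ezh2 wild-type arrays and 0.91 and 0.88 on Ezh2-deficient ones, and its GMP signal -0.77 and -0.54 against -1.12 and -1.15. Of the 8 PRC1 genes, 2 (Cbx2 and Cbx8) were below both Ezh2 wild-type arrays in both cell types, as were 3.38% of all genes tested. With the diseased arrays included, 0.562% of all genes but neither of these was so in both: the diseased LSK arrays of Cbx2, at 1.19 and 1.37, were above the others. The remaining 5 tested genes had small differences. Rnf2 was at 0.16 (95% interval -0.14 to 0.45), Ring1 at -0.18 (-0.54 to 0.18), Phc2 at -0.06 (-0.34 to 0.23), Phc1 at 0.01 (-0.26 to 0.27) and Cbx6 at -0.01 (-0.27 to 0.25), with adjusted p values from 0.856 to 0.997. The median over the 8 genes was -0.04, and over all genes 0.00.

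The bases before the gene start are shown for Bmi1 and Cbx8, whose signals differed most by Ezh2 genotype, and for Cbx6 and Phc1, which differed by cell type. RefSeq promoter sequences (assembly GRCm38.p6, which is not the array's mm9) held 8 of the 9 genes by symbol; Cbx2 was not matched. Each line gives the 250 bases before an annotated start on the gene's own strand, 5′ to 3′, with every CACGTG in capitals. That palindrome, which reads the same on both strands, is an E-box, the core to which Myc and related factors bind.
Bmi1: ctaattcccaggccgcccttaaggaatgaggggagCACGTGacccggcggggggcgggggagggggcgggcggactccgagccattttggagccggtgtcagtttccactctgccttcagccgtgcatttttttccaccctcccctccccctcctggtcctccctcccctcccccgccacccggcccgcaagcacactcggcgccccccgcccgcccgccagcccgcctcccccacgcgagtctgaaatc
Cbx8: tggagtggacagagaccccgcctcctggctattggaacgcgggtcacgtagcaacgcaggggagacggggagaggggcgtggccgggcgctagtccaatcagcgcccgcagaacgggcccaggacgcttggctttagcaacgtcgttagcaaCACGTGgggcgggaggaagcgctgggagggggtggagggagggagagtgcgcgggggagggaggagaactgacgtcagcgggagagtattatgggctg
Cbx6: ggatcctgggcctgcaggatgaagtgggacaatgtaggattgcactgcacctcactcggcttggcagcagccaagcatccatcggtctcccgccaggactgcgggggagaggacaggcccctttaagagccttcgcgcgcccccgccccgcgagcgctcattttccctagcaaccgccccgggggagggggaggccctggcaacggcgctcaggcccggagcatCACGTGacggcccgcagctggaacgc
Phc1: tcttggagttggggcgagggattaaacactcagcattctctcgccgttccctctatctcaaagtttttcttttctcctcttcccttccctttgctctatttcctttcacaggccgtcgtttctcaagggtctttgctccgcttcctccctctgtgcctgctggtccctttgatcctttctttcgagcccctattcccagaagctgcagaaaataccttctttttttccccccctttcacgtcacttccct
The Bmi1 window is chr2:18676768-18677017 (plus strand) and the Cbx8 window chr11:119040914-119041163 (minus strand). Cbx6 is at chr15:79834334-79834583 and Phc1 at chr6:122340228-122340477, both on the minus strand. The E-box starts 215 bases before the gene start in Bmi1, 98 bases in Cbx8 and 26 bases in Cbx6, and the Phc1 window has none. One window of Phc2, chr4:128654452-128654701, also holds it, which makes 4 of the 10 windows of the 8 matched genes, against 6.02% of the 32851 windows in the table. The CG dinucleotide, on which mammalian Polycomb recruitment is known to depend in part, occurs 21 times in the Bmi1 window, 22 times in Cbx8, 20 times in Cbx6 and 8 times in Phc1, against a median of 6 over all windows. Bmi1 and Cbx8, whose signals went in opposite directions, are alike in both counts. No binding or histone mark was measured here, so the letters are a description of the windows.

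The cell types were compared in all 12 arrays, with the 6 conditions as a block. Among PRC1 genes, 3 of 8 fell in GMPs relative to LSK cells: Cbx2, Cbx6 and Phc1. None rose. Over all genes 44.5% passed, 25.7% as higher and 18.9% as lower, so the share of PRC1 genes that passed was near that of all genes. The median difference was -0.19 over the 8 genes and 0.16 over all genes.

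Cbx2 had the largest difference of the 8 genes, -2.05 (SE 0.14, 95% interval -2.37 to -1.73, adjusted p = 3.08e-05), a 4.13-fold lower signal. Its 6 LSK arrays lay between 0.88 and 1.37 with a median of 1.10, and its 6 GMP arrays between -1.15 and -0.54 with a median of -1.08. The LSK and GMP arrays did not overlap, and each of the 6 conditions was lower in GMPs. Phc1, a polyhomeotic subunit, differed by -1.33 (SE 0.17, 95% interval -1.73 to -0.92, adjusted p = 0.000682). It lay between -0.19 and 0.16 (median -0.09) in LSK cells. In GMPs it was at -1.50, -1.66, -1.55 and -1.75 in the 4 conditions without disease but at -0.71 (MDS/MPN) and -1.03 (RAEB) with disease, so the cell types were closer on the diseased arrays. Within the 8 arrays without disease, all on 1 slide, the Phc1 difference was -1.56 and that of Cbx2 -1.89.

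Cbx6, a chromodomain protein that also occurs outside canonical PRC1, differed by -1.23 (SE 0.13, 95% interval -1.53 to -0.93, adjusted p = 0.000241). Its LSK arrays lay between 3.64 and 3.91 with a median of 3.86, and its GMP arrays between 2.13 and 2.73 with a median of 2.66. The second Cbx6 probe fell by 1.22 (adjusted p = 0.000502) and the third, dimmer one by 0.73 (adjusted p = 0.0116) among 17987 probes; the LSK and GMP arrays of the third probe overlapped. For Cbx2, Cbx6 and Phc1 the 6 GMP arrays lay wholly below the 6 LSK arrays, as they did for 11% of all genes tested. These 3 calls held under each of 24 alternative settings, which are not all distinct. With the condition block, leaving out the LSK or the GMP array of a condition gives the same fit, and the value table repeats the reported fit. Counts out of 24, here and below, therefore weigh some fits more than once.

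The other 5 tested genes did not pass, and their LSK and GMP arrays overlapped. The differences were 0.25 for Bmi1 (95% interval -0.08 to 0.57), 0.33 for Cbx8 (-0.11 to 0.77), 0.26 for Phc2 (-0.02 to 0.53), -0.15 for Ring1 (-0.53 to 0.24) and -0.24 for Rnf2 (-0.49 to 0.01). The sign of Phc2 turned with quantile normalization, to -0.11, and Rnf2 passed under 3 of 24 settings, with values from -0.33 to -0.47. These settings moved the median of all genes from 0.16 to 0.01 (quantile) or to -0.07 (a percentile over probes detected on all arrays), and the share of passing genes that were higher from 57.7% to 46.3% or 38.5%. The GMP and LSK marker sums given above divide the same arrays; their part in these 3 differences was not tested. With a term for the sex-linked genes the differences were -1.89 (Cbx2), -1.11 (Cbx6) and -1.56 (Phc1), and all 3 passed. Beside the condition block that term takes up the cell type difference of the diseased arrays. These are therefore the estimates of the 8 arrays without disease, and not a separate check.

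**Figure D3:**
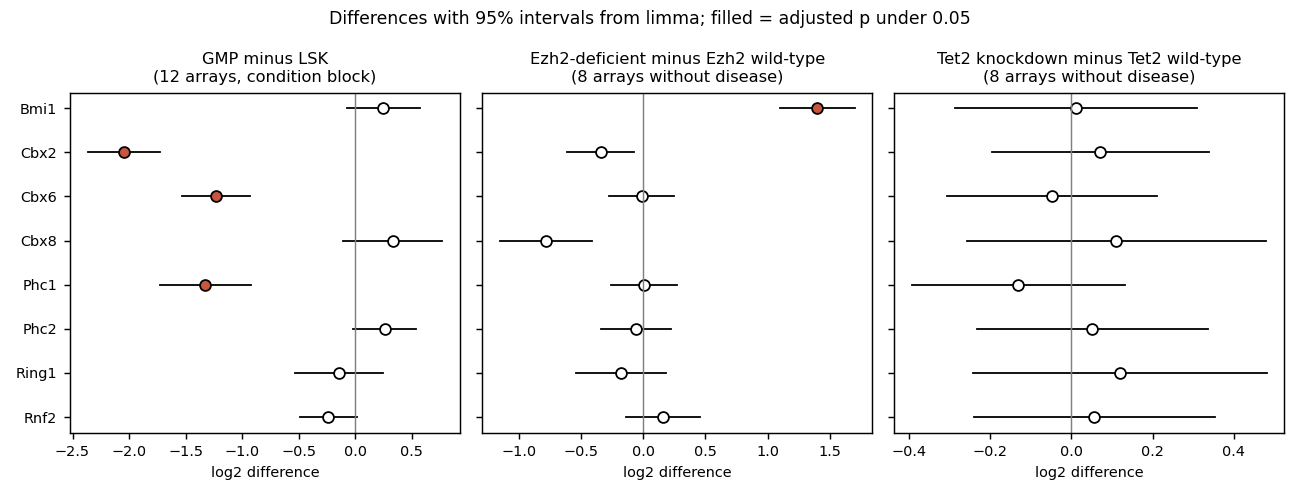
Difference (x axis, log2) with its 95% interval from limma for the 8 tested PRC1 genes (y axis) in 3 comparisons: GMP minus LSK over 12 arrays, Ezh2-deficient minus Ezh2 wild-type and Tet2 knockdown minus Tet2 wild-type over the 8 arrays without disease. Filled points passed an adjusted p under 0.05: Cbx2, Cbx6 and Phc1 in the first panel, Bmi1 in the second and none in the third.

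Tet2 knockdown was compared over the same 8 arrays, with the Tet2 knockdown and double mutant arrays against the wild-type and Ezh2-null ones, and no PRC1 gene passed. The 8 differences lay between -0.13 (Phc1) and 0.12 (Ring1), and their 95% intervals ran from -0.39 at the lowest to 0.48 at the highest. None of the 13712 genes passed limma's test, 0% of all, with 788 at an unadjusted p under 0.05. Bmi1 differed by 0.01 (95% interval -0.29 to 0.31). The product of the Tet2 and Ezh2 genotypes was negative for all 8 genes, from -0.43 (Rnf2, SE 0.20, adjusted p = 0.956) to -0.08 (Cbx8). Its median was -0.24 over the 8 genes and -0.09 over all genes, of which 5 passed (0.0365%, with 0.0146% as higher and 0.0219% as lower). The sign of the product turned in 5 of 16 alternatives for Bmi1, in 4 of 16 for Cbx8 and in none for the others. How many of all genes had a negative product was not counted. The sex-linked genes divide the 8 arrays in the same way as this product, and the pattern and the product cannot be told apart.

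The Ezh2 and Tet2 effects were then tested for a difference between GMPs and LSK cells, and limma called no gene in either (0% of 13712, with 802 and 266 at an unadjusted p under 0.05). For Ezh2 the PRC1 genes ran from -0.28 (Cbx2, SE 0.23) to 0.43 (Bmi1), and for Tet2 from -0.23 (Ring1, SE 0.33) to 0.53 (Cbx8, SE 0.27). Behind the Cbx8 value, Tet2 knockdown was the higher of its pair in GMPs, -0.51 against -0.85 and -1.09 against -1.50, and the lower in LSK cells, -0.68 against -0.64 and -1.75 against -1.48. In the double mutant against wild-type, Bmi1 differed by 1.41 (SE 0.24, 95% interval 0.85 to 1.97, adjusted p = 0.445) and Cbx8 by -0.67 (SE 0.33, adjusted p = 1.00). Again no gene passed (0%, 430 at an unadjusted p under 0.05). The other 6 lay between -0.27 (Cbx2) and 0.21 (Rnf2).

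Single pairs of arrays have no test, and a difference of at least 2-fold serves as a description. Against the wild-type array of the same cell type, Bmi1 passed 2-fold on 7 of the 8 Ezh2-deficient arrays. In LSK cells it was higher by 1.25 (Ezh2-null), 1.18 (double mutant), 1.24 (MDS/MPN) and 1.26 (RAEB), where 5.86%, 4.58%, 11.9% and 12.9% of all genes were at least 2-fold apart in either direction. In GMPs it was higher by 1.67, 1.65 and 1.22 (Ezh2-null, double mutant and RAEB), where the share of all genes was 4.59%, 5.41% and 18.4%, and by 0.93 with MDS/MPN (13.2%). Cbx8 was at least 2-fold lower in LSK double mutant cells, by -1.10, and with MDS/MPN, by -1.24. No PRC1 gene reached 2-fold with Tet2 knockdown, where 6.22% (LSK) and 3.55% (GMP) of genes did; the largest was Ring1 in LSK cells, 0.64.

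**Figure D4:**
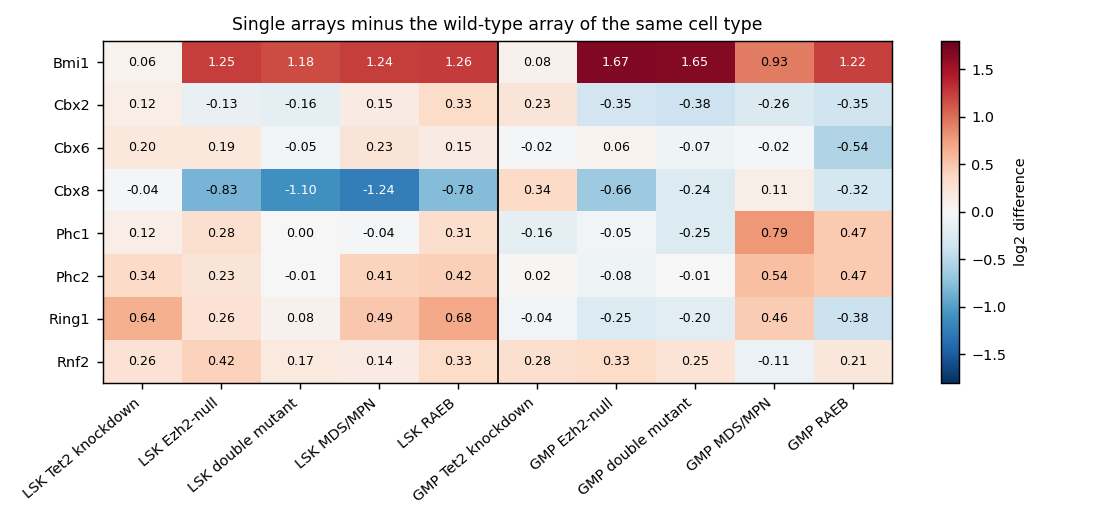
Log2 difference of each of 10 mutant or diseased arrays (columns) from the wild-type array of the same cell type for the 8 tested PRC1 genes (rows); red is higher, blue lower, and the printed number is the difference from 1 pair of arrays, with no error. The Bmi1 row is red on all 8 Ezh2-deficient arrays, from 0.93 to 1.67, and near 0 with Tet2 knockdown, at 0.06 and 0.08; the Cbx8 row is blue on all 4 Ezh2-deficient LSK arrays.

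Disease was compared within the double mutant genotype, 4 diseased arrays against 2 without disease. No PRC1 gene passed, against 0.00729% of all genes (1 gene). The sex-linked genes also part the 2 diseased GMP arrays from the double mutant GMP array and from the diseased LSK arrays. With a term for them 114 genes passed, and 22 passed without the LSK RAEB array and 6 without the GMP double mutant array, still with no PRC1 gene among them. Phc2 and Phc1, the polyhomeotic subunits, had the largest differences, 0.47 (SE 0.18, 95% interval 0.06 to 0.88, adjusted p = 0.324) and 0.51 (SE 0.26, -0.10 to 1.11, adjusted p = 0.424). Phc2 was at 3.79 (LSK) and 4.13 (GMP) in double mutant cells without disease, against 4.21 and 4.22 in diseased LSK cells and 4.67 and 4.61 in diseased GMPs. All 4 diseased arrays were the higher ones for Phc2, within each cell type. Each cell type had only 1 double mutant array without disease, and the share of all genes with this order was not counted. The order is therefore a description of the Phc2 values. Phc1 was higher on both diseased GMP arrays, by 1.04 with MDS/MPN, where 9.61% of all genes were at least 2-fold apart. In LSK cells it was at -0.15 without disease and at -0.19 and 0.16 with disease, so those arrays overlapped. Beside cell type and condition, the sex-linked term separates only the diseased LSK from the diseased GMP arrays, which lay on different slides. It cannot be told apart from slide or from a disease difference that depends on cell type. With this term the disease difference is that of the diseased LSK arrays, 0.16 for Phc1 and 0.34 for Phc2. The 114 genes that passed with it carry the same limit.

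Ring1 differed by 0.37, Cbx2 by 0.24, Cbx8 by 0.12, Cbx6 by 0.01, Rnf2 by -0.07 and Bmi1 by -0.25 (95% interval -0.73 to 0.24), with a median of 0.18 over the 8 genes and 0.10 over all genes. Markers of other cells differed on the same arrays. The GMP markers summed to 1362 on the LSK MDS/MPN array and 974 on LSK RAEB, against 473 on the LSK double mutant array without disease. On these LSK arrays the LSK markers summed to 378 and 433, against 406. Late neutrophil markers summed to 332 on the LSK MDS/MPN array and 14.5 on LSK RAEB, against 10.1 without disease. In GMPs they summed to 138 and 637, against 41.5, and the megakaryocyte markers to 12.7 and 30.6, against 2.0. Their part in these differences was not tested. RAEB against MDS/MPN, which lay on the same slide within a cell type, gave no passing gene (0%, 365 at an unadjusted p under 0.05), with PRC1 differences from -0.33 (Ring1, SE 0.29) to 0.25 (Rnf2, SE 0.19). Ring1 in GMPs went from 0.03 with MDS/MPN to -0.82 with RAEB, and in LSK cells from -0.23 to -0.03.

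The rest of the PRC1 pathway was read from 5 further lists. Of 5 other canonical subunits 4 were tested, and in GMPs against LSK cells 2 fell, where 18.9% of all genes passed as lower. Pcgf2 (Mel18), the closest relative of Bmi1, fell by 0.72 (adjusted p = 0.00978), and Phc3 fell by 0.57 (adjusted p = 0.0448), a call that held in 6 of 24 alternatives. Of the variant PRC1 genes, which pair RING1 proteins with Rybp or Yaf2 in place of Cbx and Phc, 15 of 16 were tested. In GMPs 3 rose, Bcorl1 by 0.66 (adjusted p = 0.00920), Yaf2 by 0.63 (adjusted p = 0.0106) and L3mbtl2 by 0.58 (adjusted p = 0.0293), and none fell, against 25.7% and 18.9% of all genes. The L3mbtl2 call held in 14 of 24 alternatives.

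Among the enzymes that remove ubiquitin from H2A and their partners, 9 of 10 were tested, with 1 higher in GMPs and 2 lower, against 44.5% of all genes that passed in either direction. The BAP1 partner Foxk2 rose by 0.47 (adjusted p = 0.0144), while Asxl1, another BAP1 partner, fell by 0.79 (adjusted p = 0.0186) and Usp21 fell by 0.37 (adjusted p = 0.0415, held in 13 of 24 alternatives). Of 4 PRC2 core genes, Ezh1 alone passed and fell by 0.61 (adjusted p = 0.0122), against 18.9% of all genes that passed as lower. Of 10 textbook PRC1 targets 5 were tested, the others being well above background on at most 1 of 12 arrays. The HoxA genes Hoxa9, Hoxa7, Hoxa10 and Hoxa5 fell in GMPs, 4 of the 5 tested, against 18.9% of all genes that passed as lower. Their adjusted p values ran from 0.000191 to 0.00410. The differences were -1.78 for Hoxa9, -0.84 for Hoxa7 and -1.55 for Hoxa5; Hoxa10 was well above background on 6 of 6 LSK and 3 of 6 GMP arrays, so no size is given for it. Cdkn2a, the fifth, was named after its values were seen. It was well above background on 0 of 6 LSK arrays and on 2 of 6 GMP arrays, the double mutant without disease and that with MDS/MPN. It thus entered the test only through 2 arrays of the cell type in which it is higher. Its pass as higher in GMPs is therefore not read as a difference between the cell types, and no fold is given.

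With Ezh2 loss, over both cell types together, none of the 37 tested genes of these 5 lists passed, against 0.19% of all genes. In the variant PRC1, deubiquitinase and PRC2 core lists the smallest p belonged to Rybp at 0.40 (adjusted p = 0.281), Usp21 at -0.21 (adjusted p = 0.717) and Suz12 at 0.19 (adjusted p = 0.888). In the target list it belonged to Hoxa10 (adjusted p = 0.464), for which no size is given, since some of its GMP values are at background. Hoxa10 was not well above background on the wild-type and Tet2 knockdown GMP arrays, at -6.10 and -6.14, and was at -2.68 and -2.96 on the Ezh2-null and double mutant GMP arrays; in LSK cells the 4 arrays without disease lay between -0.63 and 0.04. In the limma fit by cell type, Hoxa10 passed as higher with Ezh2 loss in GMPs (adjusted p = 0.0143), where 0.744% of all genes passed. It did not pass in LSK cells (0.26, SE 0.25), where 0.16% of all genes passed. In limma's test of the difference between the Hoxa10 effects of the cell types it did not pass either (adjusted p = 0.167). A dependence on cell type was therefore not shown, and the fit by cell type was not repeated under the alternative settings. Cdkn2a, the gene Bmi1 is best known to repress, was at -6.27 and -6.26 on the Ezh2 wild-type GMP arrays and -5.05 and -3.56 on the Ezh2-deficient ones, of which the double mutant array alone was well above background. In disease the smallest p values were those of Foxk1 at 0.69 (adjusted p = 0.233), Fbrs at 0.78 (adjusted p = 0.248) and Phc3 at -0.69 (adjusted p = 0.356), and none passed.

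Genes on either side of the PRC1 genes were read beside them. Commd3, the gene before Bmi1 on chromosome 2, differed by 0.38 with Ezh2 loss (SE 0.17, adjusted p = 0.600), against 1.40 for Bmi1. Its signal was 3.56 and 4.09 on the Ezh2 wild-type LSK arrays and 4.11 and 3.86 on the Ezh2-deficient ones, which overlapped. In GMPs it was 4.13 and 3.98 against 4.57 and 4.74. Cbx2 and Cbx8 follow each other on chromosome 11. With Ezh2 loss their differences were -0.34 and -0.78, neither of which passed, and between GMPs and LSK cells they were -2.05, which passed, and 0.33, which did not.

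Likeness over the 12 arrays was measured as Pearson's r after the cell type mean was subtracted, among 13674 genes; the arrays share genotype, slide and scaling, so r is a description. The genes most like Bmi1 were Glcci1, Tulp4 and Ppm1e, each with r = 0.96. Cbx8 was most like C1ra (0.90), Zfp93 (0.89) and Serpina9 (0.87), and Cbx2 most like Heatr5b (0.86), D030028A08Rik (0.85) and Mrc1 (0.85). For Ring1 they were Ehmt2 (0.99), Drg2 (0.97) and Tyw1 (0.97), and for Rnf2 Comp (0.90), Ngly1 (0.86) and Ext1 (0.83). Phc2 was most like Pias4 (0.98), Usp19 (0.98) and Gna11 (0.98), Phc1 most like Chd1l (0.97), Rnf220 (0.96) and Tap2 (0.96), and Cbx6 most like Rcn2 (0.96) and Eif4e (0.95). Among the PRC1 genes themselves, Bmi1 and Cbx8 had r = -0.84 and Phc1 and Phc2 had r = 0.81. The catalytic pair Ring1 and Rnf2 had r = -0.21.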

How the data were processed

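Per the labels' protocols, total RNA was extracted with Trizol and 250 ng was amplified and labelled with Cyanine 3. The deposited scanner files hold processed signal as intensity, with flags for background, saturation and outliers per spot, made by Feature Extraction 10.7.1.1 per the file headers; the array design build is mm9. The series' value table, deposited by the authors, holds the same intensity at all 62976 spots. From the 59305 gene spots, log2 processed signal minus each array's 75th percentile was computed, spots with outlier flags were left out, and probes were named through RefSeq accessions (26762 of 55681 probes had 1 symbol). A gene was tested if 2 or more of the 12 arrays had its brightest probe well above background. The 13712 genes kept were fitted with limma 3.58.1 in R 4.3.3 (lmFit, eBayes, two-sided p), adjusted by Benjamini-Hochberg across them all, threshold 0.05; every adjusted p in the text is from these fits unless 17987 probes are named. Fits on the 8 arrays without disease held cell type, Tet2 and Ezh2 genotype; the cell type and disease fits held cell type and condition. With 1 array per group, precision is limited by the number of arrays. Values named are all 9 PRC1 genes, Ezh2 and Tet2, the genes of 5 related lists that passed (up to 4 a list and comparison, otherwise the smallest p), and the 3 genes most like each PRC1 gene; for Ezh2 loss, cell type and disease the smallest-p genes are given. The PRC1 genes and lists were chosen with earlier results of these data known. Fits were tested on simulated data. Alternatives were normexp background correction, quantile normalization, another percentile, filters, mean of probes, trended variance, the value table, a sex-linked term, slide, no condition block and leaving out each array; fits of single probes were added after seeing the data. B cell, T cell, erythroid, and mast and basophil marker sums varied by up to 1.99, 1.50, 3.15 and 5.74 times within a cell type, with Ms4a1 at background on every array. A few genes that these rules would name are not reported here.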

Additional observations from a re-analysis of the deposited data

How the results depend on the processing

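The count of PRC1 genes that passed stayed within 1.5 times of the reported one in 167 of 177 alternatives, and none was reversed. Most of the 167 set 0 against 0, in comparisons where no PRC1 gene passed, and so do not show a stable call. The counts that moved were those of Ezh2 loss and of the 2-fold differences of single arrays. With Ezh2 loss Bmi1 passed in 8 of 17 alternatives. The count was 0 with a sex-linked term and 0 without any 1 of the 8 arrays (range 0 to 0). Single arrays had 9 such differences as reported and 5 with normexp background correction. Without an array fewer arrays were fitted; the cause of the other changes was not tested. Over all genes, Ezh2 loss gave 26 calls, against 74 with normexp, 17 with quantile normalization, 12 without a filter, 78 with a trended variance, 7 with the sex-linked term and 0 to 10 without 1 array, and disease gave 1, against 114 with the sex-linked term and 0 to 22 without 1 array. Of 68 PRC1 differences that did not pass, with 1295 alternatives, 109 alternatives changed the sign and 3 passed, all of Rnf2 between the cell types. The sex-linked term could not be fitted beside the product of the genotypes, which it equals. In the cell type and disease fits it separates only the diseased LSK from the diseased GMP arrays, so there it cannot be told apart from slide. The cell types were paired by condition, and without that block the count was also 3. Beyond this block no paired analysis was possible because each group had 1 array, so no replicate number joins groups. Slide as a random block had a correlation of 0.48. Signal over background limited Cbx7, Cdkn2a and Hoxa10.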
